A study of Rattus norvegicus with 20 samples.

Results

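The comparison concerned visceral white fat of rats that had eaten 30% less food for 1 month, set against fat of rats on the same restriction for 1 week. Its members were the chips whose titles named 30% calorie restriction (CR) at these durations, 4 of 20 chips and 2 of 10 pools. The study offered male Wistar rats, an outbred strain, 100%, 95%, 90%, 80% or 70% of a recorded intake of a purified powdered diet, starting at 6 weeks of age, and collected tissue after an overnight fast of 16 h. The 1 month 30% CR pool and the 1 week 30% CR pool each combined RNA of 5 rats, and its labelled RNA was split between 2 chips. Duplicate chips thus repeat the measurement only, each group has a single pool, and differences between rats do not enter the spread. The other 8 pools (control, 5%, 10% and 20% CR, each at 1 month and 1 week) gave the spread for the tests and the levels under unrestricted or milder feeding. The rats of the 1 month pool were also older at collection, so age and duration of restriction cannot be told apart. The clock hour of collection is not given in the sources used here.

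White fat stores triglyceride in adipocytes, which sit in a collagen-rich matrix together with blood vessels, macrophages and precursor cells. In a young growing rat the fat pad expands and lays down new matrix, and food restriction slows that growth and shifts the tissue between storage and release of fatty acids. Fat also holds its own circadian clock, a loop of transcription activators and repressors that follows light and meal times.

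Each value below is a MAS5 signal, the summary of a set of array probes on a linear scale, after each chip was brought to a trimmed mean signal of 100. The deposited trimmed means were 97.4 to 97.7 at 1 month, against 77.2 (first chip of a pool) or 111 (second chip) at 1 week. Of 15866 probe sets, 9520 were bright enough to be tested. Duplicate chips of a pool correlated at 0.971 to 0.982 over these, with 0.971 for the 1 month and 0.979 for the 1 week 30% CR pool, while chips of different 30% CR pools correlated at 0.945 to 0.957. Adipocyte genes were bright in both pools: the fatty acid carrier Fabp4 had signals of 6850 and 5197 at 1 month, against 5029 and 5731 at 1 week, and the secreted protease Cfd had 7446 and 6830, against 5711 and 6400. None of the 16 tested adipocyte markers differed by the chip rule described below, and none of 6 epididymis and testis markers on the array was bright enough to be tested. In bulk tissue fewer cells of a type and less RNA per cell cannot be told apart.

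Genes of other tissues set the pools apart before any further comparison. Exocrine pancreas genes, which encode enzymes that digest food, averaged 2.75 on the log2 signal scale in the 1 month and 4.69 in the 1 week 30% CR pool over 30 probe sets, with 10.03 in the 1 week control pool and 2.33 to 2.70 in the other 7. Trypsinogen Prss1 had signals of 16.4 and 19.1 at 1 month, against 371 and 328 at 1 week. Lymphocyte genes averaged 7.41 in the 1 month and 5.09 in the 1 week 30% CR pool over 23 genes, against 8.38 and 8.47 in the control pools of 1 month and 1 week. The T cell receptor component Cd3d had signals of 150 and 142 at 1 month, against 1.29 and 7.21 at 1 week. These genes, with every probe set that followed them in the 8 pools outside the comparison, were set aside: 4 listed pancreas probe sets, all lower at 1 month, 1 that followed them, also lower, 25 listed lymphocyte probe sets, of which 22 were higher and 0 lower, and 481 that followed these, of which 163 were higher and 2 lower. This left 9009 probe sets and 6722 genes.

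**Figure D1:**
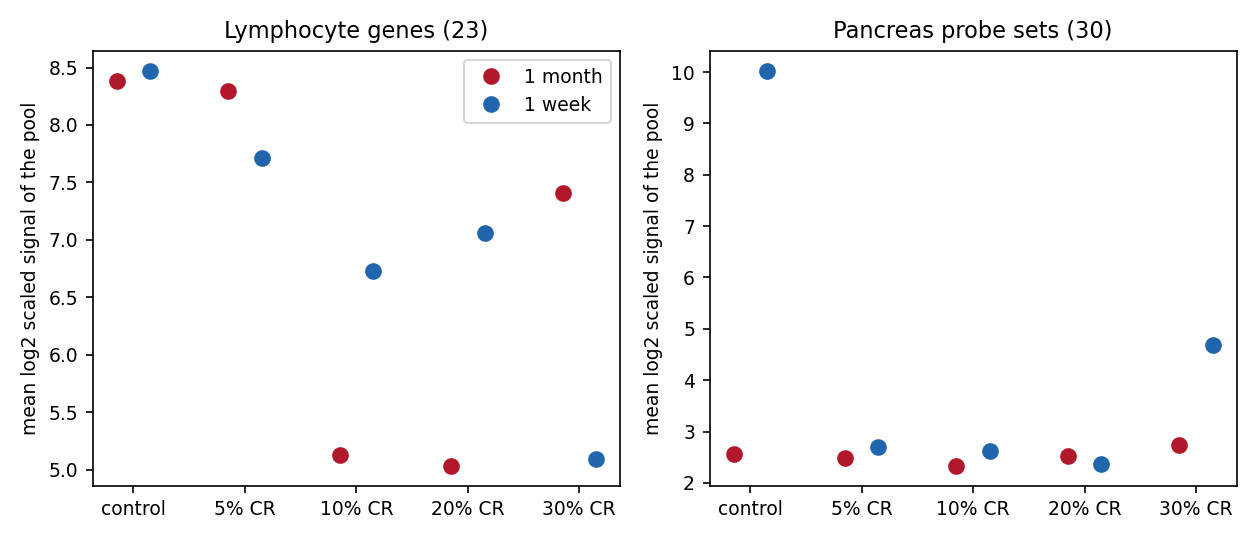
Mean log2 scaled signal of the lymphocyte genes (left, 23 genes) and of the pancreas probe sets (right, 30 probe sets) in each of the 10 pools, by restriction level, with the 1 month pool left of the 1 week pool; each point is 1 pool. At 30% CR the lymphocyte mean was 7.41 at 1 month and 5.09 at 1 week, and the pancreas mean was 2.75 at 1 month and 4.69 at 1 week.

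The difference was described in a pair of ways. In the limma test over all 10 pools, which takes the spread of the other 4 pairs of pools as that of the 30% CR pair, 0 of 9520 probe sets (0%) passed an adjusted p of 0.05, and 803 (8.43%) had an unadjusted p below it, 336 (3.53%) higher and 467 (4.91%) lower at 1 month. Set against the mean of the other 4 pairs, 0 passed and 523 (5.49%) had an unadjusted p below 0.05. Without the first 1 month chip 30 passed for the 30% CR pair alone, 2 higher and 28 lower, among them Tinagl1, Dbp, Col1a1 and Mest. By the chip rule, which is no test, a gene counted as higher or lower when all 4 differences between a 1 month and a 1 week chip had one sign and the pools differed at least 1.5-fold. Of the 6722 genes, 196 (2.92%) were higher and 251 (3.73%) lower at 1 month by this rule. These shares are the background for the list counts below. Without the fold minimum, all 4 differences were positive in 1579 and negative in 1661 of the 6722 genes, so chips without overlap are common. Over all 9520 probe sets the full rule gave 457 higher (4.8%) and 363 lower (3.81%). Over the 9009 left after setting genes aside, the shares higher and lower at 1 month were 3.02% and 3.95% in the 30% CR pair, against 2.81% and 2.61% in the control, 2.53% and 5.36% in the 5%, 2.24% and 7.46% in the 10% and 2.8% and 3.22% in the 20% CR pair. No p-value belongs to these counts, and "higher" and "lower" below mean the chip rule unless a test is named.

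Collagens and elastic fibre genes, the structural proteins of the matrix, had the lowest median of the pathway lists. Of 27 tested members 19 were lower and 0 higher at 1 month, with a median difference of -0.77 on the log2 scale, beside 0.01 over all 6722 genes. Col1a1, which encodes the major chain of type I collagen, had signals of 518 and 320 at 1 month, against 1655 and 1338 at 1 week. The chips of the pools did not overlap. The 1 month pool was 3.66-fold lower (log2 difference -1.87 ± 0.26 SE, adjusted p = 0.0926 by limma). The other tested Col1a1 probe set differed by -1.65. Col1a2, the partner chain, had 703 and 649, against 1466 and 1798 (-1.27 ± 0.24, adjusted p = 0.200). Col3a1, the fibrillar collagen of soft tissue and the brightest of the list, had 2547 and 2408 at 1 month, against 3844 and 4275 at 1 week, a 1.64-fold lower level.

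The basement membrane chains Col4a1 and Col4a2 were both lower. Col4a2 had signals of 497 and 392 at 1 month, against 1016 and 925 at 1 week (-1.14 ± 0.15, adjusted p = 0.0845). Col4a1 had 1052 and 988, against 1590 and 1698 (-0.69 ± 0.14, adjusted p = 0.256). These genes lie head to head on chromosome 16, with start sites 77 bases apart in the RefSeq annotation of the rat assembly GRCr8. The 250 bases before the Col4a1 start (chr16:84885347-84885596, plus strand, RefSeq, GRCr8) are shown because this member pair shares them in part; capitals mark the 76 bases between the Col4a1 and Col4a2 starts.
Col4a1: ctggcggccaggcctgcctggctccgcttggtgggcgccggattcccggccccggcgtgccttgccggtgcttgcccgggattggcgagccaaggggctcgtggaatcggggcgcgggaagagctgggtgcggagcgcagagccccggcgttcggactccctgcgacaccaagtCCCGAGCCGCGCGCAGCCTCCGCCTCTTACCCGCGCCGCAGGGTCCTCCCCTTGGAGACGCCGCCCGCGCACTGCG

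Other chains and elastic fibre proteins had differences of similar size. Col6a3 of the microfibrillar type VI collagen had 316 and 230 at 1 month, against 579 and 598 at 1 week (-1.13 ± 0.16, adjusted p = 0.0926). Mfap4, a microfibril protein, had 96.6 and 94.9, against 214 and 208 (-1.14 ± 0.15, adjusted p = 0.0926). Elastin Eln had 58.7 and 40.6, against 103 and 111, and Lox, which crosslinks collagen and elastin, had 43.9 and 60.8, against 97.2 and 126. A second Lox probe set differed by only -0.33. Fibulin Fbln5, which helps to assemble elastic fibres, had 69.1 and 95.5 at 1 month, against 172 and 185 at 1 week. Its control pools stood at 70.9 and 71.8, so the 1 week 30% CR pool was the high one, whereas for Col1a1 the 1 month and 1 week controls were at 704 and 1594. Members that did not meet the rule included Loxl1, another crosslinking enzyme (100 and 77.0, against 80.7 and 76.2), and Col12a1, whose chips overlapped.

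**Figure D2:**
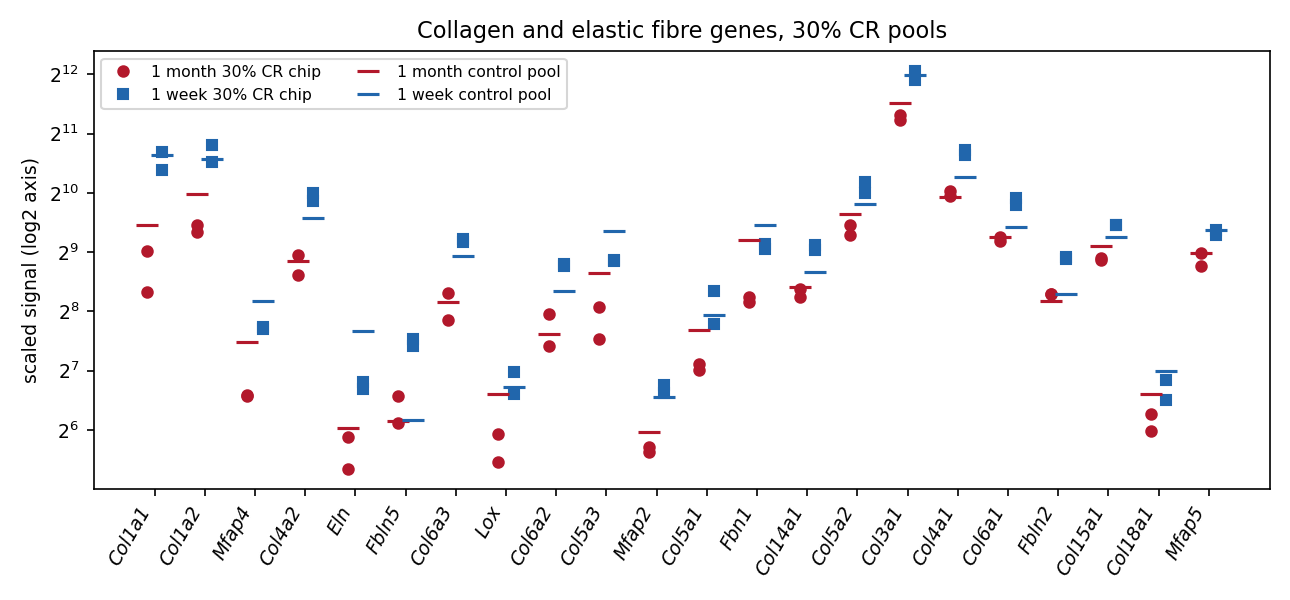
Scaled signal on a log2 axis of the 22 collagen and elastic fibre genes whose 30% CR chips differed in one direction, sorted by difference. Circles are the 2 chips of the 1 month and squares the 2 chips of the 1 week 30% CR pool, and bars are the control pools of 1 month and 1 week; in all 22 genes both 1 month chips lie below both 1 week chips.

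Genes that process collagen or fill the matrix went the same way with smaller differences. By the chip rule 3.73% of all 6722 genes were lower and 2.92% higher. All 13 tested processing enzymes had a negative difference (median -0.22, and -0.42 to -0.31 with one 30% CR chip left out, the lowest without the second 1 month chip) and 4 were lower, among them Pcolce, which enhances procollagen cleavage (161 and 162 at 1 month, against 263 and 275 at 1 week), and the prolyl hydroxylase subunit P4ha1 (169 and 145, against 264 and 248). Of 22 other matrix glycoproteins and proteoglycans 8 were lower and 0 higher (median -0.39). The basement membrane linker Nid2 had signals of 430 and 494 at 1 month, against 921 and 1022 at 1 week (-1.07 ± 0.16, adjusted p = 0.0926), fibronectin Fn1 had 390 and 470, against 711 and 753, and Sparc, a collagen-binding protein, had 1743 and 1202, against 2161 and 2457. The small proteoglycan Dcn did not meet the rule, with 3593 and 3284, against 3107 and 3451. Of 12 matrix proteases and inhibitors 3 were lower (median -0.29), including the protease inhibitor Timp1 (171 and 157, against 228 and 278). Timp3, another such inhibitor, was also lower (403 and 392, against 552 and 670), and its 4 tested probe sets differed by -0.70 to -0.09. In the control, 5%, 10% and 20% CR pairs the processing enzymes had medians of -0.10, -0.51, -0.35 and -0.23. The glycoproteins and proteoglycans had -0.10, -0.46, -0.36 and -0.14 in these pairs. For the proteases and inhibitors the medians were 0.22, -0.48, -0.27 and -0.13.

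Negative collagen differences were also found in the other pairs of pools. The list median was -0.77 in the 30% CR pair, against -0.34 in the control, -0.76 in the 5%, -0.56 in the 10% and -0.61 in the 20% CR pair. Col1a1 differed by -1.87, against -1.18, -2.10, -1.69 and -1.73 in these 4 pairs. The test of the 30% CR pair against the mean of the other 4 pairs gave -0.20 ± 0.29 for Col1a1 (adjusted p = 0.947 by limma) and -0.32 ± 0.16 for Col4a2 (adjusted p = 0.904). Eln had its smallest difference in the 30% CR pair, -1.14, against -1.64 to -1.97 in the others (0.69 ± 0.22, adjusted p = 0.814). With the lymphocyte mean (7.41 at 1 month and 5.09 at 1 week in the 30% CR pools) as a covariate, Col1a1 differed by -1.79 ± 0.39 (adjusted p = 0.90 by limma). The part of lymphocyte RNA in the collagen list as a whole was not tested.

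**Figure D3:**
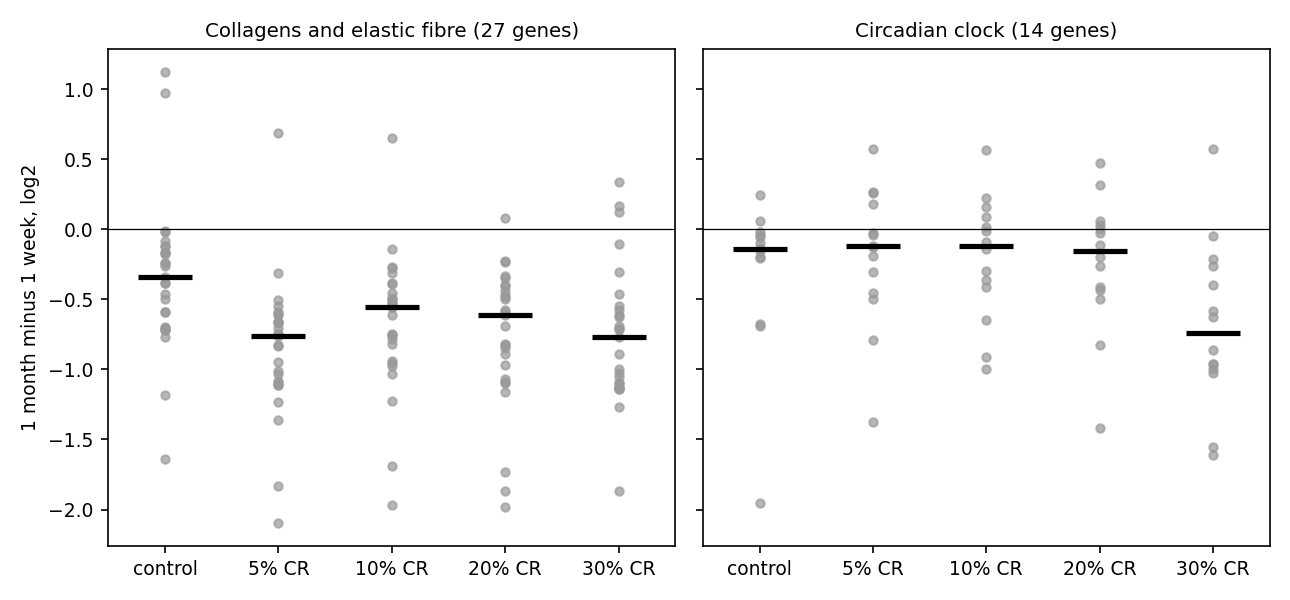
Difference between 1 month and 1 week on the log2 scale for each tested gene of the collagen list (left, 27 genes) and of the clock list (right, 14 genes) in the control, 5%, 10%, 20% and 30% CR pairs; grey points are genes and black bars are medians. The collagen medians lie between -0.77 and -0.34 in the 5 pairs, whereas the clock median is -0.74 at 30% CR and between -0.15 and -0.12 in the other pairs.

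Circadian clock genes had the next lowest median. Of 14 tested members 8 were lower and 0 higher at 1 month (median -0.74), beside medians of -0.14 in the control, -0.12 in the 5%, -0.12 in the 10% and -0.15 in the 20% CR pair. Among the output factors, Dbp, a PAR bZIP activator that follows the clock closely, had signals of 101 and 74.0 at 1 month, against 265 and 262 at 1 week. The chips of the pools did not overlap. The 1 month pool was 3.05-fold lower (-1.61 ± 0.20, adjusted p = 0.0844 by limma). Its relatives Hlf and Tef were lower too: Hlf had 46.3 and 43.7, against 92.7 and 90.8, and Tef had 21.0 and 28.6, against 45.8 and 49.7. In both 30% CR pools Dbp stood above the control pools, which had 24.3 at 1 month and 38.9 at 1 week.

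Among the repressors, Nr1d1 (REV-ERB alpha) had signals of 30.9 and 36.1 at 1 month, against 96.2 and 100 at 1 week, 2.94-fold lower (-1.56 ± 0.29, adjusted p = 0.193). Nr1d2 (REV-ERB beta) had 133 and 114, against 210 and 274 (-0.96 ± 0.17, adjusted p = 0.168), and its 2 other tested probe sets differed by -1.15 and -1.30. Bhlhe40, a repressor that binds E-boxes, had 30.6 and 29.2, against 53.0 and 67.2, and cryptochrome Cry2 had 65.6 and 50.3, against 78.9 and 99.7. The clock-driven deubiquitinase Usp2 had 45.5 and 34.7 at 1 month, against 75.9 and 68.4 at 1 week. The period genes differed less: Per2 had 86.9 and 100, against 133 and 114, and Per1 had 74.1 and 77.8, against 86.0 and 89.8, both short of 1.5-fold. The activator Clock stood on the other side, with 109 and 116 at 1 month, against 73.5 and 78.1 at 1 week (0.57 ± 0.23, adjusted p = 0.579).

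**Figure D4:**
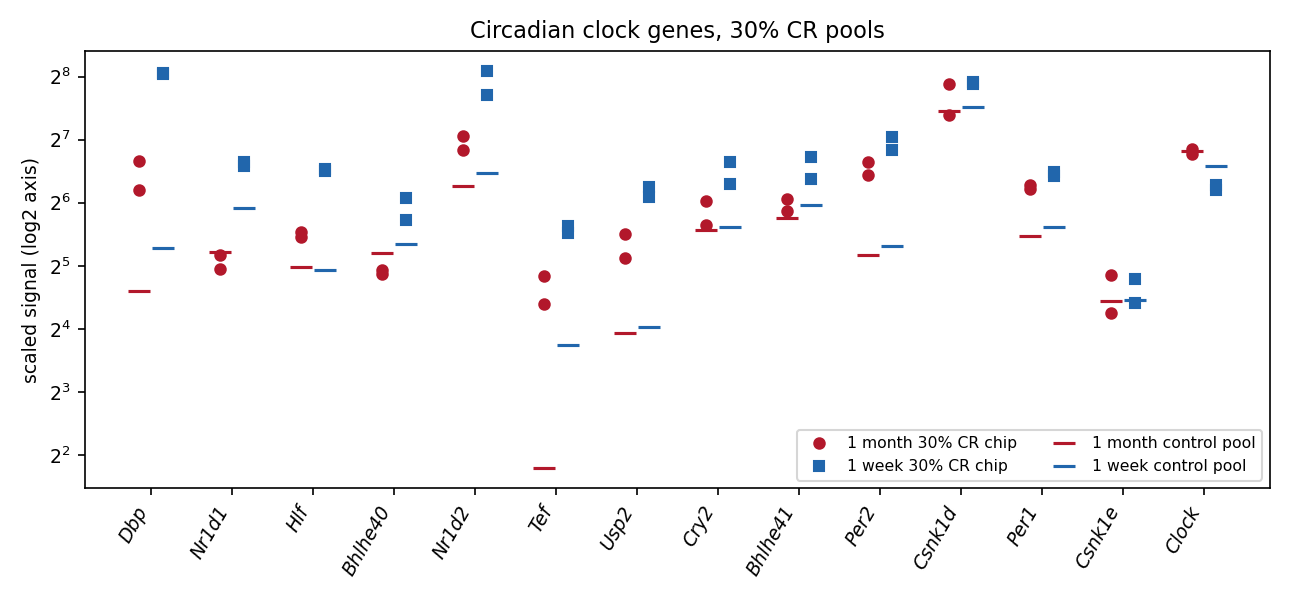
Scaled signal on a log2 axis of the 14 tested clock genes, sorted by difference; circles are the 2 chips of the 1 month and squares those of the 1 week 30% CR pool, and bars are the control pools of 1 month and 1 week. Dbp had 101 and 74.0 at 1 month and 265 and 262 at 1 week, and Clock had 109 and 116 at 1 month and 73.5 and 78.1 at 1 week.

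The clock difference at 30% CR did not pass the test against the other 4 pairs for any member. Hlf differed by -1.03, against -0.04 to 0.06 in the others (-1.04 ± 0.26, adjusted p = 0.662 by limma), and Dbp by -1.61, against -0.41 to -0.82 (-1.02 ± 0.22, adjusted p = 0.662). Nr1d1 had a negative difference in all 5 pairs, -1.56 at 30% CR and -0.69 to -1.42 in the others. With the lymphocyte mean as a covariate, Dbp differed by -1.74 ± 0.30. The part of lymphocyte RNA in the clock list as a whole was not tested. Several clock genes are dim on this array, and Tef stood at 3.44 in the 1 month and 13.3 in the 1 week control pool.

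Clock activators bind the E-box, whose letters CACGTG read the same on both strands. In the RefSeq table of GRCr8, 12 of the 14 tested clock genes had in all 14 windows. Taking the 250 bases before the start, CACGTG was found in 4 of these windows (28.6%), 1 each of Nr1d1, Bhlhe40, Tef and Bhlhe41, while 5.59% of all 33469 windows hold it. The lower clock genes had 8 windows, and 3 of these (37.5%) held the letters. These 8 windows belonged to 7 of the 8 lower genes, and Dbp was not among the 3 genes with the letters. The 3 windows are shown because they belong to lower clock genes, with CACGTG in capitals: Nr1d1 (chr10:84229455-84229704, minus strand, the one of its windows that holds the motif), Bhlhe40 (chr4:143174200-143174449, plus strand) and Tef (chr7:115206577-115206826, plus strand). A match describes the letters only.
Nr1d1: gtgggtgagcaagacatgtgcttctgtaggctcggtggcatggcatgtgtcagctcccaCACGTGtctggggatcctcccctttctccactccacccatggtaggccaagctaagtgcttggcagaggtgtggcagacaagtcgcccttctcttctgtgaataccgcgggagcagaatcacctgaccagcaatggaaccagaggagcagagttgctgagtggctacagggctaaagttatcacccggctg
Bhlhe40: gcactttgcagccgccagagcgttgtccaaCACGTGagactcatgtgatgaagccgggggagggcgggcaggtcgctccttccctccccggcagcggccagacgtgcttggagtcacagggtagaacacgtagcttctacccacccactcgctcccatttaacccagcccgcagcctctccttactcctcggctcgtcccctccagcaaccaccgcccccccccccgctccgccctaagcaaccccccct
Tef: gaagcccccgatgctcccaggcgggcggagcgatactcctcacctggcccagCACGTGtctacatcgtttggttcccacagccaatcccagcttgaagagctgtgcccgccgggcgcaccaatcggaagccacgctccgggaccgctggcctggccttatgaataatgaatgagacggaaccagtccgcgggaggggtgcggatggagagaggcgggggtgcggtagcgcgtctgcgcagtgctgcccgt

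Growth genes were lower in part, beside shares of 3.73% lower and 2.92% higher over all 6722 genes. Of 13 imprinted genes, which are read from one parental copy and many of which control growth, 5 were lower and 0 higher (median -0.42). Mest, an imprinted gene linked to fat expansion in mice, had signals of 214 and 158 at 1 month, against 522 and 434 at 1 week (-1.37 ± 0.16, adjusted p = 0.0813), with control pools at 624 and 1061. The others were Igf2, a fetal growth factor (59.3 and 50.6, against 90.5 and 90.7), Grb10, an adaptor that dampens insulin receptor signals (242 and 299, against 410 and 407), Ndn (37.5 and 44.8, against 64.6 and 65.8) and the RNA H19 (61.1 and 58.5, against 86.6 and 94.9). Mest differed by -0.45 to -0.79 in the other 4 pairs, and the test of the 30% CR pair against them gave -0.70 ± 0.18 (adjusted p = 0.662). H19 had its smallest difference at 30% CR, -0.60, against -0.94 to -1.44. Of 24 insulin and IGF signalling genes 5 were lower and 0 higher: Igf2 again, the growth factor Igf1 (649 and 644, against 998 and 997), its binding proteins Igfbp4 (139 and 78.1, against 282 and 187) and Igfbp6, and the kinase subunit Pik3ca. Other tested probe sets of Igf1 and Pik3ca differed by -0.08 and -0.04. The described Igf1 probe set differed by -0.63 at 30% CR, against -0.47, -0.94, 0.04 and -0.36 in the control, 5%, 10% and 20% CR pairs. Igfbp4 differed by -1.14, against -0.33, -1.08, -1.11 and -0.46. The median of the insulin and IGF list was -0.15, against -0.01, -0.21, 0.03 and -0.16 in these pairs.

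Genes of vessels were also lower in part, 3 of 13 endothelial markers with 0 higher and 12 with a negative difference. Over all 6722 genes 3.73% were lower and 2.92% higher, and 3307 had a negative difference. The endothelial median was -0.46, against -0.05, -0.13, -0.36 and -0.27 in the control, 5%, 10% and 20% CR pairs. Gpihbp1, which carries lipoprotein lipase across the capillary wall, had 452 and 488 at 1 month, against 788 and 760 at 1 week, and the clotting protein Vwf had 49.1 and 54.4, against 99.4 and 103. Tie1 was the third. Pecam1, found on all endothelium, had overlapping chips. Plvap had 107 and 18.4 on the duplicate chips of the 1 month pool, against 98.3 and 99.8 at 1 week, so no direction is given for it.

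Outside these lists Tinagl1, a secreted matrix protein of basement membranes, had the lowest adjusted p of all. Its signals were 175 and 98.0 at 1 month, against 355 and 376 at 1 week, with controls at 194 and 211. The chips of the pools did not overlap, and the pools differed 2.79-fold (-1.48 ± 0.15, adjusted p = 0.0658 by limma). In the other 4 pairs it differed by -0.13 to 0.06, and the test against them gave -1.44 ± 0.17 (adjusted p = 0.201), the nearest to the threshold of all probe sets. The secreted phospholipase Pla2g2a had 239 and 198, against 603 and 617, and differed by -1.82 in the 5% CR pair and -0.07 to -0.30 in the remaining pairs. Cytoglobin Cygb, an oxygen-binding protein of fibroblasts, had 106 and 116 at 1 month, against 229 and 226 at 1 week, while the other pairs differed by -0.36 to 0.27 (-1.09 ± 0.26, adjusted p = 0.662). The histamine receptor Hrh3 had 124 and 115, against 288 and 245, in both pools above the controls of 21.9 and 45.0. It differed by -1.15, against -1.04, -0.43, -0.27 and -0.84 in the control, 5%, 10% and 20% CR pairs. The adhesion protein Cdh13 had 58.5 and 32.5, against 114 and 93.4, though one of its 3 tested probe sets differed by only -0.05. The described Cdh13 probe set differed by -1.24, against -0.83, -0.37, -0.40 and -0.53 in the control, 5%, 10% and 20% CR pairs. Relative to the other pairs, the RNA polymerase subunit Polr2c (-0.88, against 0.05 to 0.65) and the sugar nucleotide enzyme Gmppa (-0.81, against -0.33 to 0.76) also stood low. Among genes not set aside, a dimmer pair picked after its values were seen came next to Tinagl1 in that test. The protease inhibitor Serpina3n, an acute phase protein, had 74.4 and 85.3 at 1 month, against 41.2 and 41.2 at 1 week, a difference of 0.95, against 2.40 to 2.73 in the other 4 pairs (-1.62 ± 0.23, adjusted p = 0.346). Fip1l1, an mRNA polyadenylation factor, had 65.1 and 78.6, against 19.8 and 26.3, a difference of 1.65, against -0.08 to 0.00 in the others (1.70 ± 0.27, adjusted p = 0.423).

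Lipid genes differed little, set beside the 2.92% higher and 3.73% lower of all 6722 genes. Of 12 triglyceride synthesis and glyceroneogenesis genes 2 were lower, the first acyltransferase of the pathway Gpam (172 and 181 at 1 month, against 304 and 304 at 1 week; -0.78 ± 0.17, adjusted p = 0.286) and Agpat1, and 9 had a negative difference. Their median was -0.31, against -0.12 to 0.09 in the other pairs, and -0.37 to -0.13 with one 30% CR chip left out, the last without the second 1 week chip. Dgat2, which makes triglyceride, had 1987 and 2107, against 2740 and 2804, short of 1.5-fold. Pck1, which supplies glycerol phosphate in fasted fat, stood on the other side with 2332 and 2039, against 1439 and 1600. Leptin Lep, the hormone that reports fat mass, had 290 and 301 at 1 month, against 238 and 218 at 1 week, a difference of 0.37, against 0.84 in the control and 1.19, 1.20 and 1.31 in the 5%, 10% and 20% CR pairs (-0.76 ± 0.21 for the 30% CR pair against the others, adjusted p = 0.682). None of the 21 fatty acid synthesis, 21 mitochondrial beta-oxidation, 21 branched-chain amino acid or 23 tricarboxylic acid cycle genes met the chip rule in either direction. Of 18 fatty acid uptake and binding genes 1 was higher and 1 lower. Among 19 lipolysis and lipid droplet genes 1 was lower, and among 18 peroxisomal genes 1 was higher.

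Cholesterol genes were the metabolic list with the most members on the higher side, 3 of 17 with 0 lower. By the same rule 2.92% of all 6722 genes were higher and 3.73% lower. Their median was 0.14, against -0.24 to -0.04 in the other pairs, 0.0585 after median centring and -0.00025 after quantile normalization. It lay between 0.101 and 0.240 with one 30% CR chip left out, highest without the first 1 month chip. Dhcr7, the last enzyme of cholesterol synthesis, had signals of 135 and 143 at 1 month, against 80.8 and 85.5 at 1 week (0.74 ± 0.21, adjusted p = 0.405). Srebf2, the transcription factor that drives the pathway, had 83.2 and 79.8, against 49.2 and 55.2, and Msmo1, a sterol demethylating enzyme, had 89.5 and 66.6, against 44.7 and 56.9. The control pools of all 3 genes were above the 1 week 30% CR pool, with Dhcr7 at 256 and 283. Srebf2 differed by 0.65 in the 30% CR pair, against -0.27 to -0.92 in the others (1.21 ± 0.31, adjusted p = 0.662). Other members, among them Cyp51 (174 and 164, against 181 and 190) and Fdps, did not meet the rule.

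Ribosomal protein genes leaned one way with small differences. All 31 described members were positive at this scaling (median 0.30, and 0.159 to 0.372 under 3 other scalings), but 1 was higher by the rule, Rpl13a, with 1863 and 1812 at 1 month, against 1174 and 1256 at 1 week. The median was -0.03 in the control, 0.26 in the 5%, 0.18 in the 10% and -0.11 in the 20% CR pair. Over the pools outside the comparison, Rpl13a followed the lymphocyte mean at a correlation of 0.79 and Rps15, another member, at 0.78. The part of lymphocyte RNA in the ribosomal list as a whole was not tested. Respiratory chain and ATP synthase genes were positive in 52 of 59 at this scaling (median 0.15, 0.0692 to 0.228 under the others, and 0.0897 without the first 1 month chip), with 0 past the rule and medians of 0.10 to 0.39 in the other pairs. Protective and housekeeping lists held 0 genes past the rule in either direction: 35 glutathione transferases and antioxidant enzymes, 24 xenobiotic enzymes, 28 heat shock proteins, 31 folding and stress genes of the endoplasmic reticulum, 12 complement and 27 autophagy and lysosome genes.

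**Figure D5:**
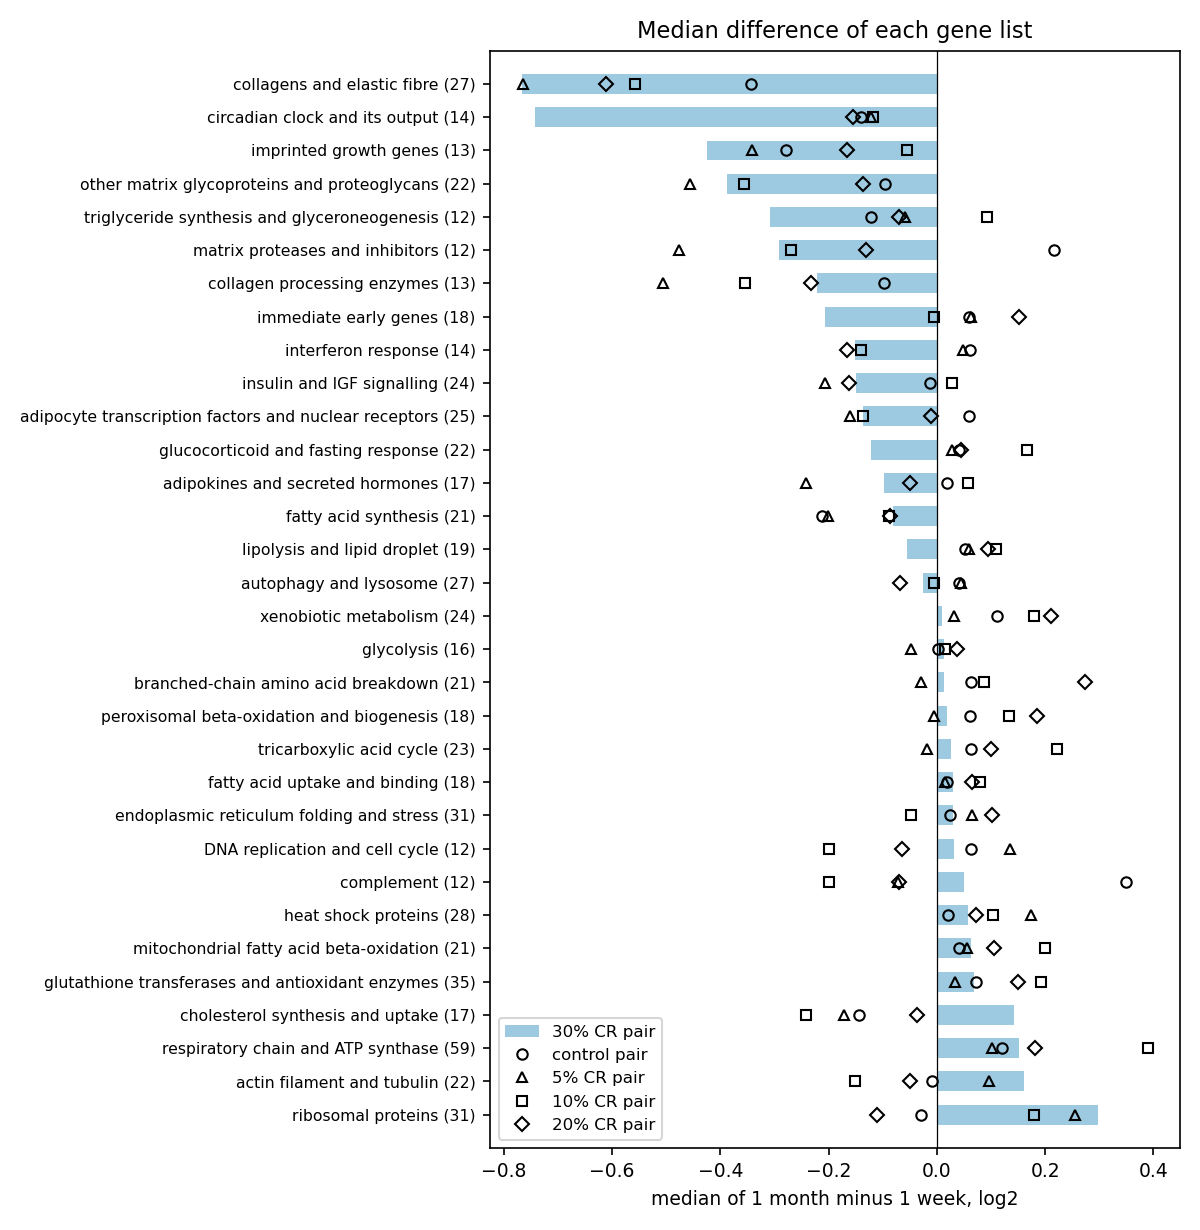
Median difference between 1 month and 1 week, log2 scale, of each described pathway list with at least 10 genes (number in brackets), with the lowest median at the top. Bars are the 30% CR pair and open symbols the control, 5%, 10% and 20% CR pairs; the clock bar (-0.74) lies apart from its symbols (-0.15 to -0.12), and the collagen bar (-0.77) does not.

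Genes on the higher side at 1 month included several of immune cells that were not set aside. Dnase1l3, a nuclease of macrophages and dendritic cells, had 195 and 200 at 1 month, against 77.2 and 61.8 at 1 week, 2.86-fold higher (1.52 ± 0.57, adjusted p = 0.530). The leukocyte protein Plek had 120 and 139, against 55.7 and 50.9, and lysozyme Lyz2, which macrophages make, had 1498 and 1589, against 769 and 791. Over the 8 pools outside the comparison these 3 genes followed the lymphocyte mean at correlations of 0.87, 0.86 and 0.89, just short of the 0.9 that set a gene aside. Of 12 described macrophage markers 11 had a positive difference (median 0.17), 7 with all chip differences positive, and 1 was higher by the rule, Lyz2. Over all 6722 genes 3415 had a positive difference, 1579 with all chip differences positive. The macrophage median was 0.40 in the control, 0.13 in the 5%, -0.34 in the 10% and -0.04 in the 20% CR pair. In the 30% CR pair it was 0.0872 after median centring. Tyrobp, an immune receptor adaptor, had 109 and 94.8 at 1 month, against 78.6 and 62.9 at 1 week, Cd68 had overlapping chips, and the growth factor receptor Csf1r, with 204 and 256, against 269 and 205, was the only member with a negative difference. Of 8 tested class II antigen presentation genes 7 were higher and 0 lower, and 6 of the 8 had been set aside. With the set-aside genes kept, 347 of all 7113 genes were higher and 257 lower. The 2 described members were the class II activator Ciita (38.6 and 29.0, against 18.3 and 16.9) and RT1-DMa (51.4 and 78.8, against 44.0 and 38.4). With the lymphocyte mean as a covariate in the fit, Dnase1l3 differed by -0.10 and Lyz2 by -0.01. Plek differed by 0.63 ± 0.30 in that fit (adjusted p = 0.905 by limma). These 3 genes follow that mean, so the covariate takes up part of their difference in advance. The fit therefore cannot show where their difference comes from.

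Among the remaining higher genes, Ifi27l2b (0.86), Skil (0.79), Tpmt (0.78) and Phip (0.71) also followed the lymphocyte mean over the 8 other pools, at the correlations given in brackets. Smooth muscle actin Actg2 had 349 and 321 at 1 month, against 136 and 142 at 1 week, but differed between -1.19 and 3.31 in the other pairs, so its error was large (1.27 ± 1.26, adjusted p = 0.818). Ucp3, a mitochondrial carrier, was 1.96-fold higher without overlap, and the thioesterase Acot7 had 213 and 272, against 132 and 123. Tpmt, which methylates thiopurines, had 163 and 201, against 108 and 81.6. Cxxc5, a zinc finger protein, had 190 and 285, against 133 and 124, yet its other tested probe set differed by -0.03. Phip, Skil, Smim11, Ifi27l2b and LOC102549828 were each 1.72-fold to 1.83-fold higher, and with Dnase1l3, Plek, Lyz2 and Dhcr7 they completed the 14 genes with the largest positive difference among those of sufficient signal.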

How the data were processed

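Visceral white fat of male Wistar rats was profiled on Affymetrix Rat Expression Set 230 chips, 2 chips for each of 10 pools. The deposited table holds MAS5 signals, linear intensity values that the authors made per chip with Affymetrix software. No genome build or alignment is involved, and the depth of an array is not a read count, so precision is limited by the number of pools.

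Here each chip was scaled to a 2% trimmed mean of 100, signals below 1 were set to 1, and log2 was taken. Of 15923 probe sets 57 array controls were left out, and 9520 of the remaining 15866 with a mean log2 signal above the 40th percentile over the 20 chips were tested. Of the 15866, 12783 had 1 gene symbol in the platform annotation, 312 several and 2771 none, and 12773 of the symbols matched the RefSeq table of GRCr8. A gene was described by its tested probe set of highest mean signal. Genes were set aside by list, by a Pearson correlation of at least 0.9 with the lymphocyte mean, or by a 4-fold excess in the 1 week control pool, both over the 8 pools outside the comparison.

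Duplicate chips carry RNA of 1 pool and were averaged, so that each group has n = 1. limma 3.58.1 in R 4.3.3 (lmFit, eBayes with an intensity trend, two-sided, Benjamini-Hochberg adjustment over 9520 probe sets, threshold 0.05) was fitted to the 10 pool means with restriction level, duration and their interaction at 30% CR. The lone 30% CR pair is thereby assumed to vary like the other 4 pairs. Every ± is the standard error of this fit, or of the same fit with the lymphocyte mean added where that covariate is named. No replicate of the 30% CR pools checks the difference. The fitting script was tested on simulated data.

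Genes named are the 14 per direction with the largest differences among genes with 1 symbol, a signal of at least 100 in the higher pool and all 4 chip differences of one sign, then 5 per direction for the test against the other pairs, the leading 2 of each list, and the brightest set-aside genes. Since 0 passed the test, the chip rule filled these places. Further list members were picked after their values were seen. The members and lists were chosen with earlier results of these data known. Alternatives were other scalings, floors, filters and fold minimums, each 30% CR chip and each other pair left out, a linear dose slope, a fit without trend, a lymphocyte covariate and a block for the chip number; leaving the set-aside genes out of the chip counts was chosen after seeing the data. The other pools were not described for their own sake.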

Additional observations from a re-analysis of the deposited data

Results flagged for a closer look

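In 5 of the 106 named genes, all 4 chip differences at 30% CR had the opposite sign to all 4 in the control pair. None of them passed the limma test of the 30% CR pair against the other 4 pairs. Chip differences of one sign were common at 30% CR, positive in 1579 and negative in 1661 of all 6722 genes. The share with opposite signs was not counted over all genes. Fmod, a collagen-binding proteoglycan, had signals of 322 and 338 at 1 month, against 499 and 693 at 1 week at 30% CR, and 349 and 432 at 1 month, against 236 and 282 at 1 week in the control pools. Its differences were -0.83 and 0.59 (-0.89 against the mean of the other pairs, adjusted p = 0.904). Herpud1, a protein of the endoplasmic reticulum stress response, differed by -0.57 at 30% CR and 0.76 in the control pair (-0.87, adjusted p = 0.904). Metrnl, a secreted factor of fat and muscle, differed by -0.54 and 0.39 (-0.35, adjusted p = 0.924), and the mesothelial surface protein Msln by -0.31 and 0.27 (-0.08, adjusted p = 0.983). Cxxc5 was the only one of the 5 with a positive difference at 30% CR, 0.86, against -0.68 in the control pair (1.29, adjusted p = 0.662).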

How the results depend on the processing

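The count of probe sets past the limma test was 0 and stayed 0 on the deposited scale, with quantile normalization, a floor or an offset of 16, a filter at the 60th percentile, no intensity trend, the lymphocyte covariate, or without the control or the 10% CR pools. It was 4 with median centring (Prkcq higher, Tinagl1, Dbp and Col1a1 lower), 1 without a filter, 3 without the 5% CR pools, 1 without the 20% CR pools, 2 with a linear slope (both Col1a1 probe sets), and 0 to 30 with one 30% CR chip left out. With the replicate block for the chip number, which treats the chips of a pool as partly separate samples (consensus correlation 0.249), it was 171, 65 higher and 106 lower. The numbers name chips of pools and pair no rats. The test against the other pairs gave 0 to 1 calls with one chip left out, Tinagl1 without the first 1 month chip. The 820 probe sets of the chip rule became 451 with an offset of 16, 2721 without a filter, 369 at the 60th percentile, 222 at 2-fold and 996 to 1353 with one chip left out. Without the set-aside genes they were 628, 272 higher and 356 lower. This split was 398 higher and 233 lower on the deposited scale, 171 and 518 with median centring, 174 and 421 with quantile normalization, 96 and 208 with the offset, 1561 and 897 without a filter, 76 and 196 at the 60th percentile and 41 and 62 at 2-fold. With one chip left out, 357 to 556 were higher and 440 to 591 lower. The median of all probe sets was 0.02, against 0.09 on the deposited scale, -0.07 with median centring and 0.00 with quantile normalization, so small list medians changed sign. Median centring gave -0.0535 for fatty acid uptake, -0.0207 for beta-oxidation, -0.0566 for the tricarboxylic acid cycle and -0.0146 for antioxidant enzymes. Quantile normalization gave -0.0324 for fatty acid uptake and -0.00025 for cholesterol synthesis. The adipocyte median was 0.0108 on the deposited scale. With one chip left out, fatty acid uptake lay between -0.0229 and 0.0847 and the adipocyte median between -0.161 and 0.0686. Of 106 named genes, the linear slope turned Cela1 (0.28) and Pnlip (0.19), and the lymphocyte covariate turned Dnase1l3 (-0.10), Lyz2 (-0.0057), Cpb1 (0.0094), Cela1 (1.12), Pnlip (1.35), Hbb (0.17), Pcna (-0.0176) and Arpc3 (-0.0393). No other named gene turned under the 16 alternatives. The cause of these changes was not tested. With 1 pool a group, signals near the background and differences between rats limit every value.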

Other observations

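Some groups outside those above held few genes past the chip rule, which 2.92% of all 6722 genes met as higher and 3.73% as lower. Among 25 transcription factors and nuclear receptors of adipocytes, 3 were higher and 2 lower at 1 month. The orphan receptor Nr4a1 had signals of 32.7 and 38.6 at 1 month, against 17.4 and 16.6 at 1 week, Rxrg had 131 and 131, against 96.1 and 76.1, and the thyroid hormone receptor Thra was the other higher gene. Cebpb, which drives early adipocyte differentiation, had 132 and 125, against 204 and 188, and Esrra had 47.4 and 22.9, against 58.1 and 63.0. Of 17 adipokines and secreted hormones 3 were lower and 0 higher: Igf1, Fgf1, a growth factor of fat remodelling (44.2 and 43.1, against 75.1 and 75.1), and Apln, a peptide hormone (19.9 and 28.3, against 50.6 and 38.1).

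Among markers of other cells, 2 of 12 smooth muscle and pericyte genes were higher and 1 lower, beside 2.92% and 3.73% over all 6722 genes. Differences were positive in 8 of the 12 and negative in 4. Higher were the contractile genes Cnn1 (96.1 and 82.4 at 1 month, against 46.1 and 40.1 at 1 week) and Actg2. The pericyte receptor Pdgfrb was lower (32.5 and 27.4, against 44.0 and 48.2). The actin Acta2 had a negative difference short of 1.5-fold (192 and 148, against 254 and 216). The list median was 0.14, against -0.37, 0.85, -0.70 and 0.82 in the control, 5%, 10% and 20% CR pairs. The epithelial keratin Krt19 was lower, 1 of 6 described mesothelial markers (173 and 153, against 264 and 254). The red cell enzyme Alas2 was lower, 1 of 3 erythroid genes, and 0 of 3 mast cell genes met the rule. Of 26 tested DNA replication and cell cycle genes 14 followed the lymphocyte genes and were set aside, and of the 12 left 1 was higher, the helicase subunit Mcm5 (35.3 and 39.7, against 22.5 and 21.6).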
